A study of Zea mays with 24 samples.

Results

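Small heat shock proteins (small HSPs) are chaperones that bind unfolding proteins and hold them in a state from which HSP70 and HSP101 can refold them. Plants encode many of them in the nucleus, sorted into classes that act in the cytosol, the chloroplast, the mitochondrion or other compartments, and most leaf cells hold little of them until the temperature rises. Their genes are switched on by heat stress transcription factors (HSFs), which bind repeated elements in the promoters. The 10 maize genes described here are hsp26, hsp18c, hsp18f and hsp22 with class I and class II relatives, taken as the array spots that carry their gene IDs. All 10 IDs are on the array, among 107027 gene IDs in all, through 16 spots of 12 different probes, and all 10 passed the filter on dim probes, which 48263 genes passed. A member that passed only through its heat arrays had to differ between treatments, so that the number passing is no result.

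The 10 members are GRMZM2G149647 (hsp26, the small HSP of the chloroplast), GRMZM2G034157 (hsp18c), GRMZM2G083810 (hsp18f), GRMZM2G007729 (hsp22, the small HSP of the mitochondrion), GRMZM2G158232 (hsp 17.2), GRMZM2G404249 (hsp18a), GRMZM2G422240, GRMZM2G335242, GRMZM2G046382 and GRMZM2G311710. Names are from RefSeq's maize gene table (assembly Zm-B73-REFERENCE-NAM-5.0), in which 8 of the 10 IDs have an entry. GRMZM2G046382 and GRMZM2G311710 are named here by their IDs only, as are GRMZM2G335242 and GRMZM2G422240, whose entries carry no other name. The entry of GRMZM2G422240 is a transcribed pseudogene and is the direct neighbour of GRMZM2G158232 on chromosome 3, with 0 genes between them. GRMZM2G083810 lies on the same chromosome, with 324 genes between it and GRMZM2G422240. Small HSP genes resemble each other in sequence, and how far a probe binds transcripts of a near copy was not tested. The array's probe names carry a prefix, Sp for hsp26, hsp18c, hsp18f and hsp 17.2 and Xhy for the other 6 members, hsp22 and GRMZM2G335242 among them, and the meaning of the prefixes is not given in the sources used here. The members hsp26, hsp18c, hsp18f and hsp 17.2 have 1 probe spotted in duplicate, hsp22 has 3 probes for its transcripts T01, T02 and T03, and the other 5 have 1 spot each.

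Leaves and stems of three-leaf seedlings were hybridised to 24 one-colour Agilent arrays, 1 per sample, with 4 replicates in each of 6 groups. The groups are heat and control samples of cytTC221, cytTC248 and TC243. TC243 is the nucleus donor line, and cytTC221 and cytTC248 (written cytT248 in the study's methods) are cytolines, made by repeated backcrossing, in which that nucleus sits in the cytoplasm of TC221 or of T248. Control seedlings stayed in the growth chamber at 26 °C by day, and heat seedlings were moved from the same conditions to 40 °C for 24 h before sampling. The labels call the replicates biological, but they conflict for control cytTC221, where the arrays titled replicates 3 and 4 both have a source name that reads replicate 2. The titles were used. The 4 arrays of that group correlated with each other at 0.989 to 0.993 over all genes, and values with replicates 2 to 4 averaged and counted as 1 sample, an alternative chosen after seeing the data, stand beside the results they change. The methods name 3 seedlings per line as well as 4 replicates and do not say how they relate, so that the p-values measure the spread between these samples.

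Values are log2 signals of the authors' normalised table, from which no background was subtracted. A gene with no measurable transcript therefore sits near 6.5 (the array medians are 6.50 to 6.52), and the fold regulation (FR, heat over control) of a dim gene is understated. The arrays had 36.9 to 43.1% of spots well above background, no saturated spot, 0 to 45 flagged spots, none of them a member's, and correlations of 0.986 to 0.995 within groups. The 5 leaf markers (C4 cycle enzymes and Rubisco small subunits) were well above background on all 24 arrays, and of 4 endosperm markers the gamma zein was so on 0 arrays, opaque2 on 1, waxy1 on 2 and shrunken2, a dim probe, on 14. Among the leaf markers the Rubisco small subunit GRMZM2G098520 was dim as well, at 7.1 to 7.7. Each slide held 4 arrays. Within a line the control and heat arrays lay at different slide positions, so that position and treatment cannot be told apart within a line. The odd positions held the controls of TC243 and cytTC221 but the heat arrays of cytTC248. Position and line therefore cannot be told apart either where cytTC248 is compared with another line.

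All 10 members were up-regulated by heat in each of the 3 lines (limma, Benjamini-Hochberg adjusted p below 0.01 over all genes tested), with adjusted p between 1.67e-28 (hsp18c in cytTC248) and 1.91e-12 (GRMZM2G046382 in TC243). In the same tests 36.2% of all genes were called up in cytTC221, 41.7% in cytTC248 and 41.9% in TC243, so that a call alone says little and the sizes carry the difference. The median member response, as a log2 difference, was 5.62 in cytTC221, 5.44 in cytTC248 and 4.93 in TC243, beside -0.02, 0.07 and 0.05 for the median of all genes in those lines. With the members unmeasured in control set to their lower bounds, the medians were 5.57, 5.44 and 4.93. The mean member response was 5.58, 5.62 and 5.45 in the same order of lines, so that the order and distance of the lines depend on the measure. Responses ranged from 1.74 to 9.02 in cytTC221, from 1.42 to 9.38 in cytTC248 and from 1.45 to 9.54 in TC243, with GRMZM2G311710 lowest in every line. The highest fitted value was that of hsp26, but it and the other members with no measured control array have only a lower bound and so no order among themselves. The mean log2 signal over the 10 members was 13.04 ± 0.06 in heated and 7.45 ± 0.05 in control cytTC221, 13.04 ± 0.15 in heated and 7.42 ± 0.06 in control cytTC248, and 12.84 ± 0.22 in heated and 7.39 ± 0.01 in control TC243 (SD, n = 4 each). In bulk samples, fewer cells that carry a transcript and less transcript per cell cannot be told apart.

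**Figure D1:**
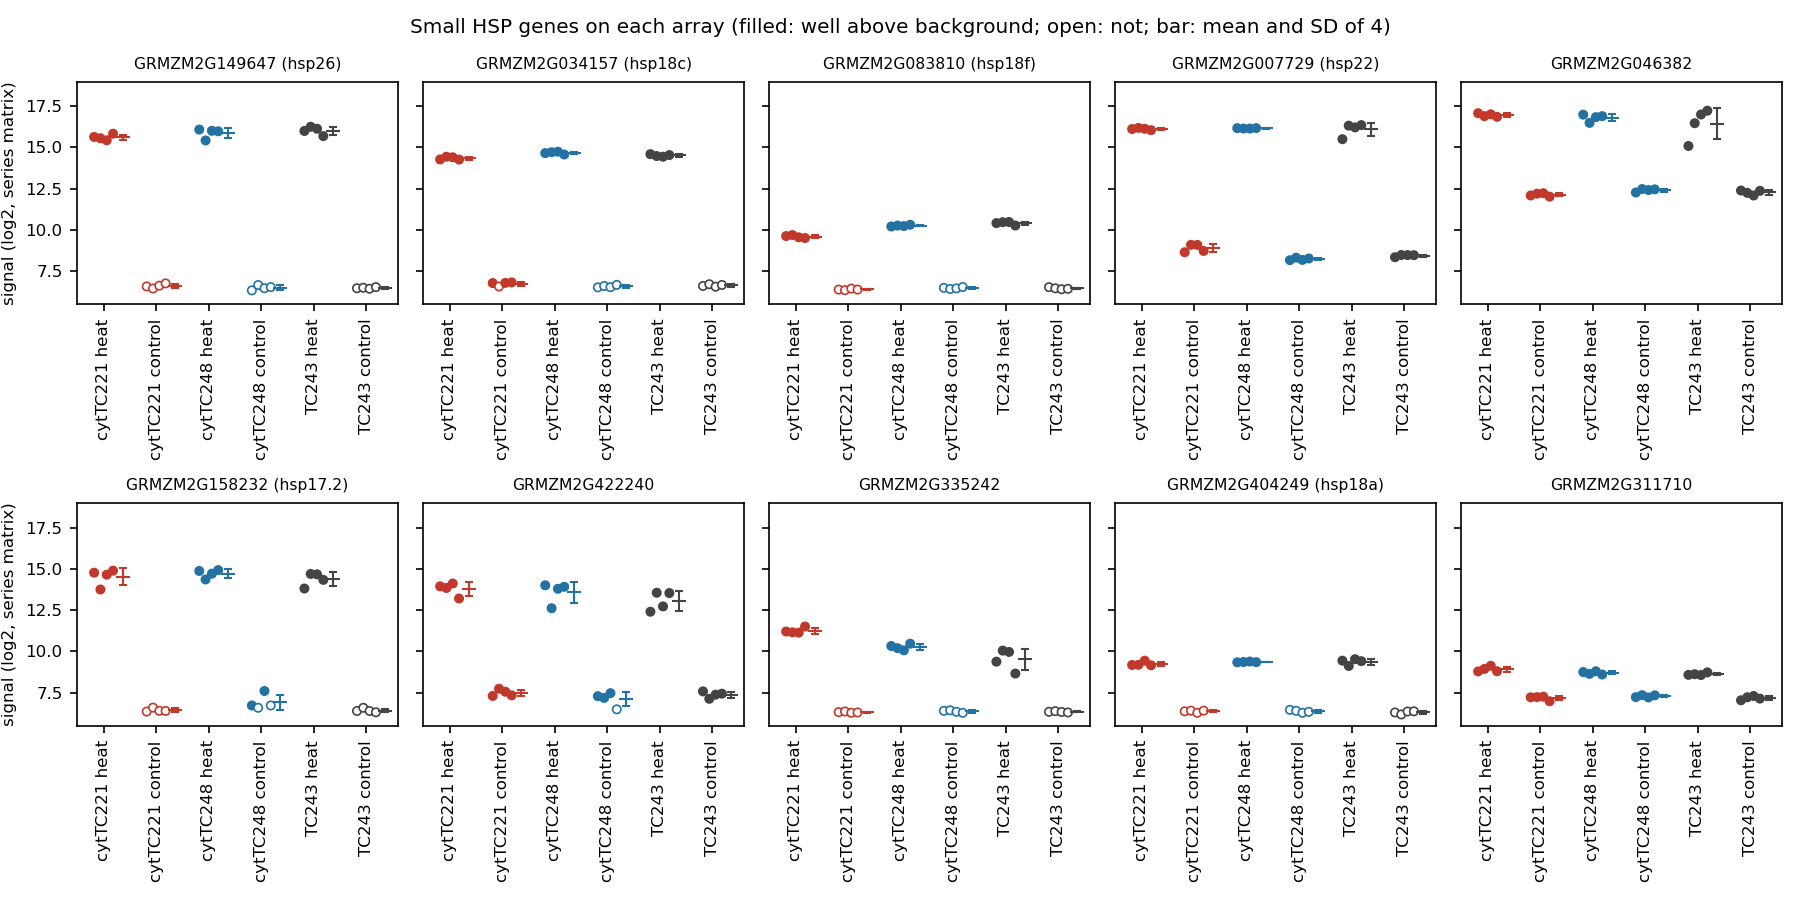
Log2 signal of each of the 10 small HSP genes (vertical axis, authors' normalised scale) on every array, by line and treatment (horizontal axis), with 1 point per array, filled where the gene was well above background, and a bar for the mean and SD of 4 arrays. Every heat array lies above every control array of its line in every panel, the control arrays of hsp26, hsp18f, GRMZM2G335242 and hsp18a are all open, and those of GRMZM2G046382, GRMZM2G311710 and hsp22 are all filled.

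Taking the organelle proteins first, hsp26 had log2 signals of 15.64, 15.56, 15.44 and 15.84 on the heat arrays of cytTC221, against 6.58, 6.45, 6.62 and 6.76 on its control arrays. In cytTC248 its heat arrays gave 16.09, 15.43, 16.01 and 15.98 and its control arrays 6.34, 6.66, 6.47 and 6.54. In TC243 its heat arrays gave 16.00, 16.26, 16.14 and 15.69 and its control arrays 6.47, 6.50, 6.44 and 6.54. The treatments lie far apart in every line, and hsp26 was well above background on 0 of the 12 control arrays. Its FR was at least 518 in cytTC221, at least 665 in cytTC248 and at least 743 in TC243, with adjusted p of 2.81e-24, 1.37e-24 and 9.96e-25. Where no control array measured a gene, "at least" sets the mean of the heat arrays against a control value that is, on each array, the gene's own signal or the dimmest signal that still counted as above background, whichever is higher.

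hsp22, by contrast, was measured on all 24 arrays. Averaged over its 3 probes, its heat arrays gave 16.12, 16.19, 16.13 and 16.05 in cytTC221, against 8.65, 9.10, 9.09 and 8.73 on the control arrays. In cytTC248 the heat arrays gave 16.17, 16.15, 16.15 and 16.17 and the control arrays 8.17, 8.32, 8.18 and 8.27. In TC243 the heat arrays gave 15.50, 16.32, 16.22 and 16.36 and the control arrays 8.35, 8.48, 8.48 and 8.47. The lowest of the 12 heat arrays, replicate 1 of TC243, owes its place to 1 of the 3 probes: T02 read 13.40 there and 16.22 to 16.40 on the other TC243 heat arrays, while T01 and T03 read 16.19 and 16.92. The FR of hsp22 was 150 in cytTC221, 243 in cytTC248 and 202 in TC243 (adjusted p 1.96e-22, 4.02e-23 and 6.33e-23). Among the 27840 genes measured on all 24 arrays, whose differences can be ranked, this was the 5th largest response in cytTC221, the 1st in cytTC248 and the 2nd in TC243.

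**Figure D2:**
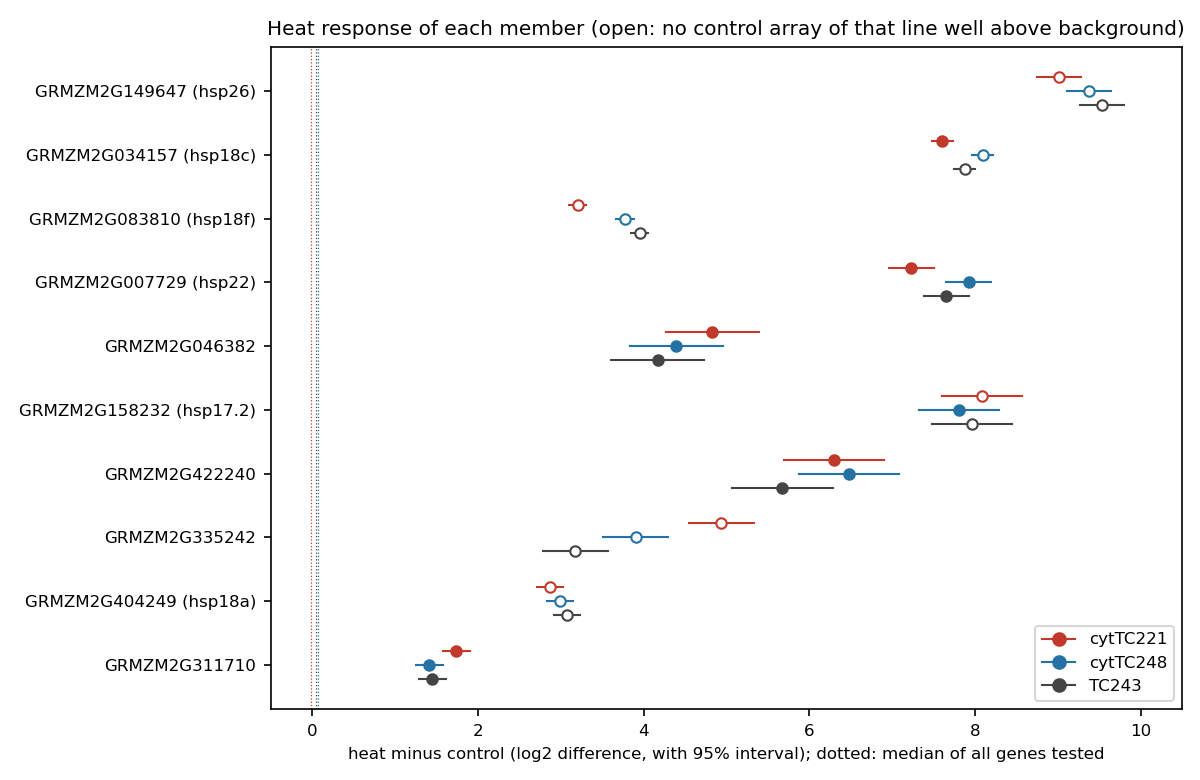
Heat minus control log2 difference of each member (horizontal axis) in cytTC221, cytTC248 and TC243, with its 95% interval from the limma fit. Open symbols mark lines in which no control array was well above background, so that the difference there is limited by the background, and the dotted lines, all near 0, are the medians of all genes tested in each line.

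Among the members with an hsp18 name, hsp18c had heat signals of 14.28, 14.44, 14.41 and 14.27 in cytTC221, against 6.78, 6.57, 6.79 and 6.82 in control. In cytTC248 the heat signals were 14.66, 14.72, 14.75 and 14.58 and the control signals 6.52, 6.60, 6.53 and 6.67. In TC243 the heat signals were 14.60, 14.48, 14.44 and 14.54 and the control signals 6.61, 6.71, 6.56 and 6.67. Heat and control arrays were apart by more than 7 log2 units in each line, and only in cytTC221 did control arrays, 3 of 4, measure the gene above background. The FR was 195 in cytTC221, at least 273 in cytTC248 and at least 235 in TC243.

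hsp18f gave 9.63, 9.69, 9.56 and 9.51 on the heat arrays of cytTC221, against 6.39, 6.35, 6.45 and 6.39 on its control arrays. In cytTC248 the heat arrays gave 10.21, 10.27, 10.24 and 10.32 and the control arrays 6.49, 6.42, 6.46 and 6.54. In TC243 the heat arrays gave 10.42, 10.47, 10.48 and 10.27 and the control arrays 6.53, 6.46, 6.41 and 6.43. All 4 heated cytTC221 arrays lie below all 8 heated arrays of the other lines, and 0 of 12 control arrays measured the gene. The FR was at least 9.06 in cytTC221, at least 13.5 in cytTC248 and at least 15.4 in TC243. hsp18a moved less, with an FR of at least 7.07, 7.45 and 7.93 in cytTC221, cytTC248 and TC243, heat signals of 9.12 to 9.53 over all 12 heat arrays and none of the control arrays measured.

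The scale also sets the size of a fold. With the scanner software's own background-subtracted signal, scaled to each array's 75th percentile, in place of the authors' table, the FR of hsp22, whose control arrays are measured, was 196 in cytTC221, 405 in cytTC248 and 275 in TC243. This setting, called the processed signal below, changes the background subtraction and the scaling together.

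The neighbours GRMZM2G158232 (hsp 17.2) and GRMZM2G422240 were both strongly up-regulated. hsp 17.2 gave heat signals of 14.78, 13.76, 14.66 and 14.90 in cytTC221, against 6.36, 6.60, 6.40 and 6.40 in control. In cytTC248 the heat signals were 14.88, 14.37, 14.72 and 14.93 and the control signals 6.73, 6.59, 7.60 and 6.73, and in TC243 the heat signals were 13.82, 14.70, 14.68 and 14.34 and the control signals 6.39, 6.59, 6.39 and 6.31. The single values that stand apart come from arrays on which the 2 spots of the probe disagreed. On replicate 2 of heated cytTC221 the spots read 12.56 and 14.95, on replicate 1 of heated TC243 they read 12.75 and 14.88, and on replicate 3 of control cytTC248 they read 8.33 and 6.87. The FR was at least 266 in cytTC221, 225 in cytTC248, where 2 of 4 control arrays measured the gene, and at least 245 in TC243.

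GRMZM2G422240 was measured on 23 of 24 arrays. Its heat signals were 13.95, 13.85, 14.12 and 13.21 in cytTC221, against 7.30, 7.74, 7.56 and 7.34 in control. In cytTC248 they were 14.01, 12.62, 13.80 and 13.92, against 7.29, 7.18, 7.47 and 6.49 in control, and in TC243 they were 12.41, 13.56, 12.73 and 13.54, against 7.58, 7.13, 7.38 and 7.44 in control. The SD between heat arrays was 0.40, 0.65 and 0.58 in cytTC221, cytTC248 and TC243, wider than for most members but far below the distance from the controls. The FR was 78.7, 89.3 and 51.2 in cytTC221, cytTC248 and TC243, with adjusted p of 4.32e-15, 2.32e-15 and 2.56e-14.

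GRMZM2G046382 was measured on all 24 arrays and read 17.08, 16.90, 17.01 and 16.86 on the heat arrays of cytTC221, against 12.09, 12.20, 12.23 and 12.02 on the control arrays. In cytTC248 its heat arrays gave 16.99, 16.49, 16.84 and 16.90 and its control arrays 12.27, 12.48, 12.42 and 12.46. In TC243 its heat arrays gave 15.09, 16.47, 17.00 and 17.23 and its control arrays 12.39, 12.25, 12.09 and 12.37. Replicate 1 of heated TC243 is again the low one, and this gene has a single spot. The FR was 28.4, 21.1 and 18.0 in cytTC221, cytTC248 and TC243, and the response in TC243, 4.17 on the log2 scale, was 4.63 without that array.

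GRMZM2G311710 had the smallest response. It read 8.79, 8.94, 9.13 and 8.80 on the heat arrays of cytTC221, against 7.22, 7.23, 7.26 and 6.98 on the control arrays. In cytTC248 its heat arrays gave 8.75, 8.64, 8.80 and 8.60 and its control arrays 7.23, 7.35, 7.21 and 7.34, and in TC243 its heat arrays gave 8.58, 8.62, 8.57 and 8.73 and its control arrays 7.04, 7.22, 7.30 and 7.14. The treatments do not overlap in any line. The FR was 3.35, 2.67 and 2.73 in cytTC221, cytTC248 and TC243, and by size the response came 2875th, 4222nd and 4181st among the 27840 genes measured throughout.

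GRMZM2G335242 is the member whose heat arrays set the lines apart most. These gave 11.21, 11.16, 11.14 and 11.51 in cytTC221, 10.33, 10.20, 10.07 and 10.47 in cytTC248 and 9.38, 10.05, 9.97 and 8.66 in TC243. The lines did not overlap, but the lowest cytTC248 array (10.07) and the highest TC243 array (10.05) nearly met. On the slides that held heat arrays of both these lines the difference was 0.15 and 0.10. How many other genes show no overlap was not counted. Its control arrays read 6.28 to 6.43 in all lines, none of them above background. The FR was at least 28.8 in cytTC221, at least 14.1 in cytTC248 and at least 8.74 in TC243.

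The comparison of lines asks whether the same nucleus responds alike in different cytoplasms. Between heated cytTC221 and heated TC243, 4 of 10 members were called, 2 higher and 2 lower in cytTC221, where 48.3% of all genes were called, so that the members' share is near that of the array as a whole. GRMZM2G335242 was 1.74 higher on the log2 scale in cytTC221 (SE 0.19, adjusted p 4.51e-08) and hsp18f 0.81 lower (difference -0.81, SE 0.05, adjusted p 7.71e-12). Both held within each of the 2 slides that carried both heat groups, with differences of 1.11 and 1.17 for GRMZM2G335242 and of -0.78 and -0.93 for hsp18f. hsp26 (-0.40, adjusted p 0.00959) and GRMZM2G311710 (0.29, adjusted p 0.0029) were called by a narrower margin. The call of hsp26 was lost in 17 of the 24 fits that left out 1 array, with adjusted p up to 0.0441, and under 7 of the 11 other settings that tested it, with adjusted p between 0.0112 (control cytTC221 replicates 2 to 4 as 1 sample) and 0.168 (processed signal, where the difference was -0.50). That of GRMZM2G311710 was lost without replicate 3 of heated TC243 (0.0102) or replicate 3 of heated cytTC221 (0.0172), and with the processed signal (0.16, adjusted p 0.339), with normexp background correction and the 75th percentile (0.13, adjusted p 0.276) or with normexp and quantile scaling (0.20, adjusted p 0.0441). Of the members not called here, hsp18c passed with normexp and quantile scaling (-0.30, adjusted p 0.000434) and hsp18a without replicate 2 of heated TC243 (-0.22, adjusted p 0.0079).

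**Figure D3:**
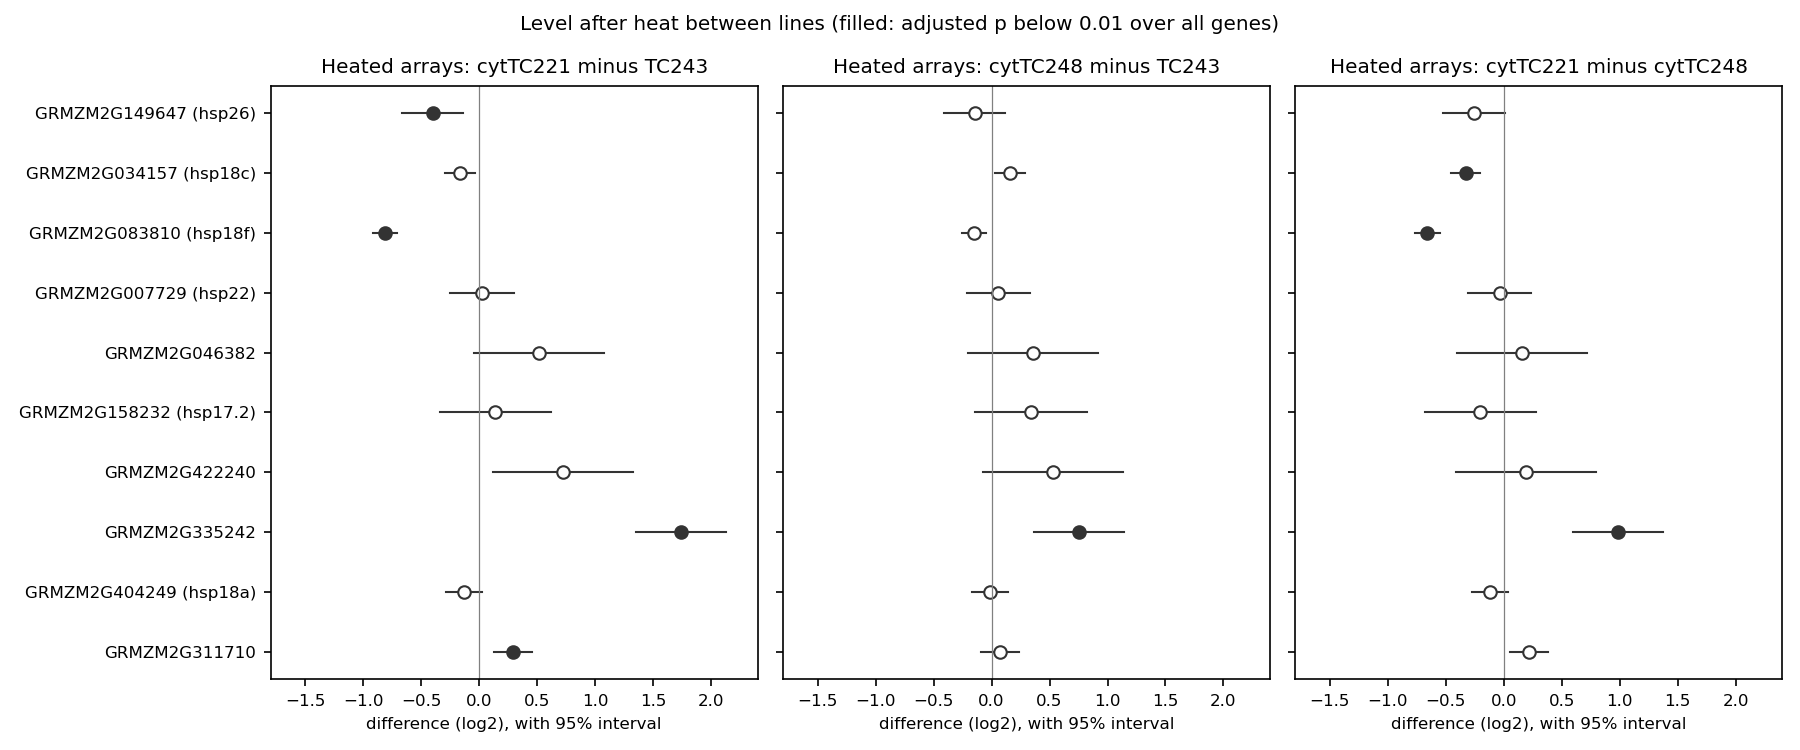
Difference in log2 signal between the heat arrays of pairs of lines (horizontal axis) for each of the 10 members, with its 95% interval, filled where the adjusted p over all genes was below 0.01. GRMZM2G335242 lies right of 0 in all 3 panels, at 1.74, 0.75 and 0.99, and hsp18f lies at -0.81 and -0.66 in the panels that hold cytTC221.

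Between heated cytTC248 and heated TC243, 1 of 10 members was called, GRMZM2G335242, which was 0.75 higher in cytTC248 (SE 0.19, adjusted p 0.00406), while 18.1% of all genes were called. The call was lost without replicate 1 of heated TC243 (adjusted p 0.0143), replicate 1 of heated cytTC248 (0.0122) or replicate 4 of heated cytTC248 (0.0167), with slide as a block (0.63, adjusted p 0.0301), with array weights (0.53, adjusted p 0.0144) and with the processed signal (0.79, adjusted p 0.0588). On the 2 slides that held both heat groups the difference was only 0.15 and 0.10. The other 9 members were not called, and their 95% intervals leave room for a difference of up to 1.13 (GRMZM2G422240). hsp18f passed without replicate 4 of heated TC243 (-0.20, adjusted p 0.00469), with array weights (-0.18, adjusted p 0.00554) and with the brighter of duplicate spots (-0.21, adjusted p 0.00156), so that with array weights the 1 member called was hsp18f and not GRMZM2G335242.

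Between heated cytTC221 and heated cytTC248, 3 of 10 members were called, and 39.2% of all genes. GRMZM2G335242 was 0.99 higher in cytTC221 (SE 0.19, adjusted p 0.000137). hsp18f was lower in cytTC221 (-0.66, SE 0.05, adjusted p 5.51e-10), as was hsp18c (-0.33, SE 0.06, adjusted p 0.000113). All 4 slides that held both heat groups gave the same signs, with 0.88 to 1.07 for GRMZM2G335242, -0.81 to -0.58 for hsp18f and -0.39 to -0.28 for hsp18c. On each slide, however, the cytTC248 heat array lay at an odd position and the cytTC221 heat array at an even position. The call of hsp18c was lost with the processed signal, where the difference was larger (-0.59, adjusted p 0.0457), and hsp26 passed without replicate 2 of heated cytTC248 (-0.41, adjusted p 0.00416).

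The members with the widest spread between heat arrays allow the least to be said. GRMZM2G422240 differed by 0.72 between heated cytTC221 and heated TC243 (95% interval 0.12 to 1.33, adjusted p 0.0381). For GRMZM2G046382 the interval of that difference ran from -0.05 to 1.08, and for hsp 17.2 from -0.34 to 0.62. hsp22, with a difference of 0.02 between heated cytTC221 and heated TC243, had an interval of -0.25 to 0.30.

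Without stress fewer members were called. However, hsp26, hsp18f, hsp18a and GRMZM2G335242 were well above background on no control array. A difference between unstressed lines could not be measured for them, although they are counted among the members tested. Of the 10 members, 0 were called between control cytTC221 and control TC243 (15% of all genes called) and 0 between control cytTC248 and control TC243 (11.1%) by limma. At an unadjusted p below 0.05, 1 member passed in each. Between control cytTC221 and control cytTC248 the only member called was hsp22, among 11.5% of all genes, 0.66 higher in cytTC221 (SE 0.13, adjusted p 0.000864). With replicates 2 to 4 of control cytTC221 counted as 1 sample this call was lost (0.57, adjusted p 0.017). In the first comparison hsp22 was also the member with the largest difference, 0.45 higher in cytTC221, with an adjusted p of 0.0158. That value passed the threshold without replicate 1 of control cytTC221 (adjusted p 0.00797), without replicate 1 of heated TC243 (0.000211), with the brightest probe (0.000196), with array weights (0.000831) and with the replicate block (0.00801). All 4 control arrays of cytTC221, at 8.65 to 9.10, lie above the 8 control arrays of the other lines. Each probe alone had its highest control mean in cytTC221, although single arrays of cytTC221 and TC243 overlapped for T02. T01 averaged 8.63 in cytTC221, 7.95 in cytTC248 and 8.12 in TC243, T02 8.80, 8.19 and 8.46, and T03 9.25, 8.57 and 8.75. On the 2 slides that held control arrays of cytTC221 and cytTC248 the difference was 0.48 and 0.54, and on the 2 that held cytTC221 and TC243 it was 0.30 and 0.25. GRMZM2G046382, GRMZM2G311710 and GRMZM2G422240, measured on 11 or all 12 control arrays, were not called between any control groups. hsp18c and hsp 17.2, measured on 3 of 4 control arrays of cytTC221 and on 2 of 4 of cytTC248, were not called either, but passed under other settings. With the processed signal, hsp18c was 1.08 higher in control cytTC221 than in control cytTC248 (adjusted p 0.00274), and with the brighter of duplicate spots 0.25 higher (adjusted p 0.00413). With the processed signal, hsp 17.2 was called in control cytTC248, with -2.35 for cytTC221 minus cytTC248 (adjusted p 0.00115) and 2.39 for cytTC248 minus TC243 (adjusted p 0.00103), where the control arrays of cytTC221 and TC243 did not measure it.

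**Figure D4:**
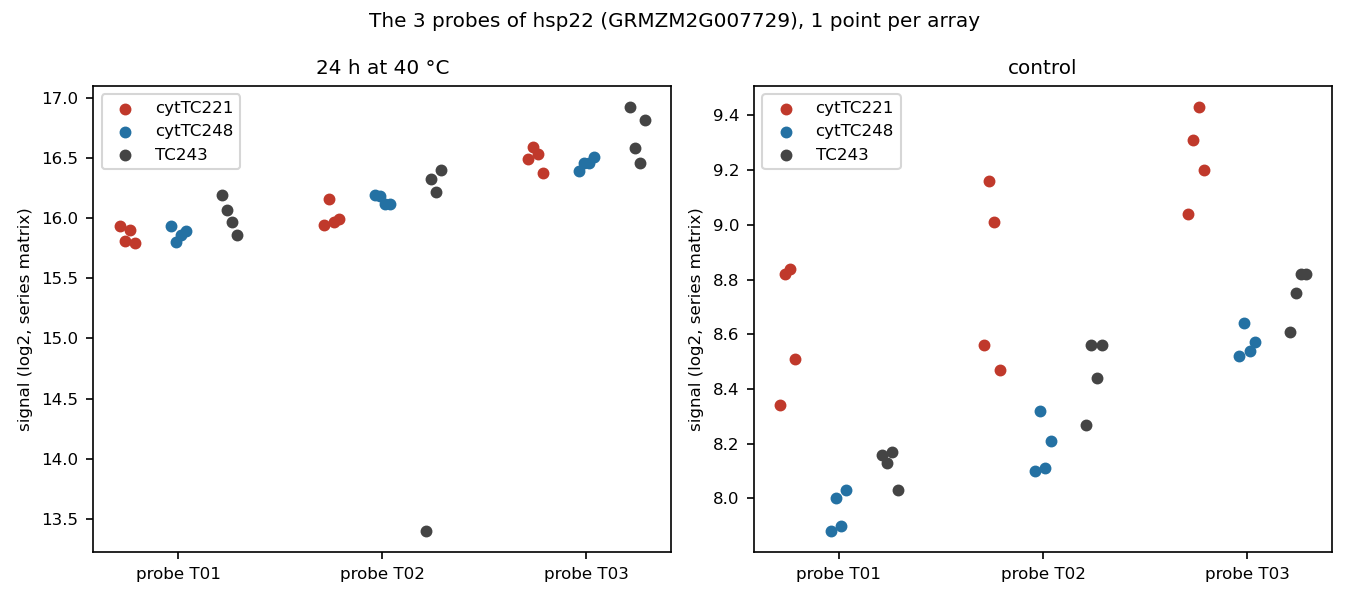
Log2 signal of the 3 probes of hsp22 on the heat arrays (left) and the control arrays (right) of cytTC221, cytTC248 and TC243, with 1 point per array and a separate vertical axis for each treatment. The control arrays of cytTC221 have the highest mean for every probe, the heated lines lie close together, and the point at 13.40 is probe T02 on replicate 1 of heated TC243.

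The response itself, the difference of heat and control differences, was tested as an interaction. Between cytTC221 and TC243, 2 of 10 members were called, against 37.4% of all genes: GRMZM2G335242 responded by 1.76 more in cytTC221 (adjusted p 9.22e-06) and hsp18f by less (-0.75, adjusted p 1.78e-08). Between cytTC248 and TC243, 0 of 10 were called, against 14.4%, with differences from -0.17 to 0.80 and 3 members at an unadjusted p below 0.05 (limma). GRMZM2G335242 passed there without replicate 2 of heated TC243 (0.91, adjusted p 0.0096). Between cytTC221 and cytTC248, 4 of 10 were called, against 31.2%. The response in cytTC221 was larger for GRMZM2G335242 (1.04, adjusted p 0.00313) and smaller for hsp18c (-0.49, adjusted p 9.43e-05), hsp18f (-0.57, adjusted p 1.4e-06) and hsp22 (-0.69, adjusted p 0.00455). For hsp22 the groups differed at the control end (0.66) and not detectably at the heated end (-0.04, 95% interval -0.31 to 0.24), and its call was lost without replicate 2 (adjusted p 0.0123) or replicate 3 (0.0124) of control cytTC221 and with replicates 2 to 4 of that group counted as 1 sample (-0.61, adjusted p 0.0209). The members hsp18f and GRMZM2G335242 were below background on all control arrays, so that their interaction rests on the heat arrays. With the processed signal hsp18f was no longer called against TC243 (-0.62, adjusted p 0.0558) or cytTC248 (-0.48, adjusted p 0.141), nor GRMZM2G335242 against cytTC248, although its difference was as large (1.09, adjusted p 0.0403). The last call was also lost with normexp and the 75th percentile (0.87, adjusted p 0.011) and with replicates 2 to 4 of control cytTC221 counted as 1 sample (1.03, adjusted p 0.0127). Between cytTC221 and TC243, leaving out 1 array brought in hsp22 (without replicate 1 of heated TC243, -0.62, adjusted p 0.000153), hsp26 (without replicate 4 of heated TC243 or replicate 2 of heated cytTC248, adjusted p 0.00428 and 0.00484) or hsp18c (without any of 4 arrays, adjusted p 0.00191 to 0.00966). Between cytTC221 and cytTC248 it brought in hsp26 (without replicate 2 of heated cytTC248, -0.51, adjusted p 0.00911). Other settings brought in hsp26 between cytTC221 and TC243, with slide as a block (-0.73, adjusted p 0.00552), normexp and quantile scaling (-0.67, adjusted p 0.00507) or the processed signal (-1.45, adjusted p 0.00854). There they also brought in hsp22, with the brightest probe (-0.69, adjusted p 8.36e-05) or array weights (-0.59, adjusted p 0.0032), and hsp18c, with normexp and quantile scaling (-0.43, adjusted p 0.000527) or the brighter of duplicate spots (-0.31, adjusted p 0.00399). Centring on the median gene brought in GRMZM2G311710, with 0.39 against TC243 (adjusted p 0.00567) and 0.41 against cytTC248 (adjusted p 0.00445).

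Duplicate spots give the error within an array. The 2 spots of a member's probe were more than 1 log2 unit apart in 3 of 48 cases on heat arrays and 1 of 48 on control arrays, beside 1.57% and 1.13% over all kept probes in duplicate. Of these 4 cases, 3 are hsp 17.2 and 1 is hsp26, on replicate 3 of heated cytTC221 (14.76 and 16.11). The line differences of hsp18c and hsp18f are below 1 log2 unit. The spots of hsp18c were up to 0.33 apart on heat arrays (median 0.18) and up to 0.86 on control arrays, on replicate 2 of cytTC221. Those of hsp18f were up to 0.68 apart on heat arrays (median 0.08), on replicate 4 of TC243, and 0.46 apart on replicate 4 of cytTC221, so that single gaps are of the size of the differences between lines.

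**Figure D5:**
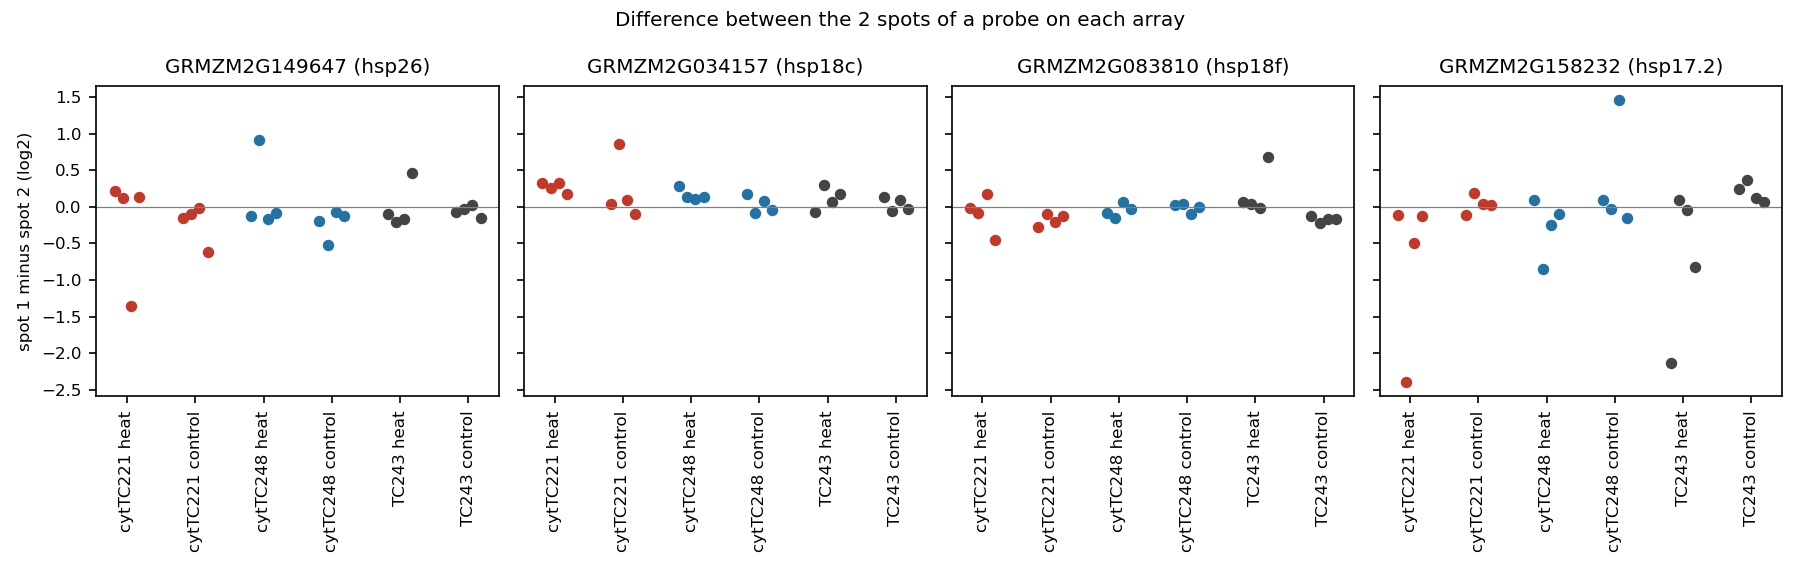
Difference between the 2 spots of a probe on the same array (vertical axis, log2) for the 4 members spotted in duplicate, by line and treatment. Most points lie near 0, and the points beyond 1 are 3 arrays of hsp 17.2 and 1 array of hsp26.

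HSFs, which drive small HSP genes, and the chaperones that refold their clients were looked up by name in the RefSeq table. The name search found only 12 HSF genes on the array. The study reported more HSF genes as differentially expressed, among them a stronger responder than any found here. Of the 12, 11 were measured, and 6, 6 and 6 of them were up- and 1, 3 and 4 down-regulated in cytTC221, cytTC248 and TC243, where 36.2, 41.7 and 41.9% of all genes were called up and 38.7, 38.1 and 38.3% down. Their median response was 0.20, 0.17 and 0.21, far below the members' median. Among the genes found, GRMZM2G133023 (Hsf05, an entry it shares with another ID) had the highest mean response, 3.13, and GRMZM2G384339 (Hsf12) the lowest, -0.49. The other ID of the Hsf05 entry, GRMZM2G132971, went the other way, with a mean response of -0.25, and both IDs are counted among the 11. Of 4 HSP70 and HSP101 genes found by name, 4, 4 and 3 were up-regulated in these lines, beside the same shares of all genes. hsp101 (GRMZM2G360681), the disaggregase that works with small HSPs, had the highest mean response of the 4, 6.73, and hsp70-4 (GRMZM2G340251) the lowest, 0.54. A search of the same table for names beginning with hsp17, hsp18, hsp20, hsp22 or hsp26 found 0 genes on the array outside the 10 members. Names with other small HSP sizes were not searched. Some of the 10 members carry no such name themselves, so that the search cannot show whether the array holds further small HSP genes.

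The 5 genes whose signal followed the members most closely over the 24 arrays (Pearson's r with the mean standardised member profile) were GRMZM2G165675 (0.9993), GRMZM2G058402 (0.9990), GRMZM2G312877 (0.9989), GRMZM2G308687 (gst5, a glutathione S-transferase, 0.9989) and GRMZM2G177878 (0.9988). The arrays fall into heat and control clusters, which alone gives high values, so that these are a description. The responses of these genes ranged from 2.97 to 6.47 in TC243.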

How the data were processed

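Scanner files, 1 per array, were deposited by the authors (Agilent Feature Extraction, version 11 per the labels, 11.5.1.1 per the file headers), with spot intensity on a linear scale, and a table of log2 values per spot. The deposited log2 values ranked as the median spot intensity did on every array (Spearman's rho 0.9999), with equal distributions across arrays, as quantile normalisation without background subtraction gives. They are the source of all main values here. Scanner calls of "well above background" and flags came from the intensity files.

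Spots of a probe were averaged, probes were kept if every unflagged spot was well above background throughout 1 or more groups (64522 of 133671 probes, 176026 spots), and the probes kept for a gene ID were then averaged (48263 genes). All 24 arrays were fitted together as 6 groups with limma 3.58.1 in R 4.3.3 (lmFit, eBayes), with Benjamini-Hochberg adjustment over all genes and a threshold of 0.01, as in the study's methods. Precision is limited by there being 4 arrays per group. The script was tested on simulated data. Gene names came from RefSeq by gene ID, and since its assembly is not that of the array's older IDs, no coordinates are given. No sequences were used here.

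The members and lists were chosen with earlier results of these data known. All 10 members are named, and beyond them the 5 genes most correlated with their mean profile and the highest and lowest of each list by mean response. The wording of the HSF search was widened to names of the form Hsf with a number after the naming table was seen. The search for other small HSP genes covered fewer names than planned. Replicate numbers were not used to pair the samples in the main fit. Alternatives were other background corrections and scalings (normexp with offset 50, the scanner's processed signal, with the 75th percentile, and median centring), no or a stricter filter, the brightest probe, the brighter of duplicate spots, slide or replicate blocks, array weights, leaving out each array and counting control cytTC221 replicates 2 to 4 as 1 sample.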

Additional observations from a re-analysis of the deposited data

Results flagged for a closer look

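The 6 differences in response between lines that passed the interaction test all involve cytTC221. Over all genes, too, the comparisons with cytTC221 gave the larger shares of calls. These were 37.4% against TC243 and 31.2% against cytTC248, beside 14.4% between cytTC248 and TC243. GRMZM2G335242 responded by 1.76 log2 units more in cytTC221 than in TC243 and by 1.04 more than in cytTC248. hsp18f (GRMZM2G083810) responded by less in cytTC221, with -0.748 against TC243 and -0.574 against cytTC248. hsp18c (GRMZM2G034157) and hsp22 (GRMZM2G007729) passed against cytTC248, with -0.488 and -0.692, and against TC243 only under other settings or without single arrays.

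Of 60 sets of 4 arrays (10 members in 6 groups), 8 held an array whose gap to its nearest neighbour took up more of the range than Dixon's 95% limit. Chance alone gives about 1 such set in 20. On the heat arrays the ratio was 0.841 for hsp26 on replicate 2 of cytTC248 (15.43, next 15.98), 0.849 for GRMZM2G422240 on the same array (12.62, next 13.80), 0.893 for GRMZM2G404249 (hsp18a) on replicate 3 of cytTC221 (9.44, next 9.19) and 0.836 for hsp22 on replicate 1 of TC243 (15.50, next 16.22). On the control arrays it was 0.84 for hsp18c on replicate 2 of cytTC221 (6.57, next 6.78), 0.857 for GRMZM2G311710 on replicate 4 of cytTC221 (6.98, next 7.22), 0.862 for GRMZM2G158232 on replicate 3 of cytTC248 (7.60, next 6.73) and 0.925 for hsp22 on replicate 1 of TC243 (8.35, next 8.47).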

How the results depend on the processing

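The 30 heat responses of the members kept their direction and their call under every alternative that tested the gene, and no called difference changed sign. For the members that passed the filter only through heat groups, the heat calls were largely fixed in advance. Calls between lines depended more on the processing. With normexp and the 75th percentile, 2 members differed between heated cytTC221 and heated TC243 in place of 4, and the mean member response was 5.91, 6.17 and 5.82 in cytTC221, cytTC248 and TC243. With normexp and quantile scaling, 4 members in place of 2 differed in response between cytTC221 and TC243, and the mean response was 5.71 in cytTC221 and 5.82 in cytTC248. With the processed signal and the 75th percentile, which change the background subtraction and the scaling together, 2 differed in response between cytTC221 and cytTC248 in place of 4 (hsp18f lost its calls against both lines, with adjusted p 0.141 and 0.0558), 2 in heated level between cytTC221 and TC243, 0 between cytTC248 and TC243 in place of 1, 1 unstressed between cytTC248 and TC243 in place of 0 and 3 between cytTC221 and cytTC248 in place of 1. The mean response was then 7.92, 8.18 and 8.01 in cytTC221, cytTC248 and TC243. With only probes measured on all arrays, 3 members could be tested. All 3 were up-regulated in each line (mean response 4.60, 4.58 and 4.43), 0 and 1 differed in response between cytTC221 and TC243 or cytTC248, and 1, 0 and 0 differed in heated level between cytTC221 and TC243, cytTC248 and TC243, and cytTC221 and cytTC248. That filter left 11456 of 27840 genes up-regulated in TC243, against 20241 of 48263. Over all genes, 5632 in place of 8739 differed in heated level between cytTC248 and TC243 with normexp and the 75th percentile, and 4305 in place of 6927 in response with the processed signal. With the slide as a block, 0 differed between heated cytTC248 and heated TC243. With the brightest probe or array weights, 1 member (hsp22) differed between unstressed cytTC221 and TC243 in place of 0. With the replicate block it was also 1 (hsp22, adjusted p 0.00801), and hsp26 lost its call between heated cytTC221 and heated TC243 (0.0159). The correlation of deviations between arrays of the same number was -0.18 to 0.27 (median 0.01), beside -0.20 to 0.24 (median -0.003) for other numbers. Of 24 arrays, 11 correlated best with an array of their own number, and whether this exceeds chance was not tested. With the brighter of duplicate spots, an alternative chosen after seeing the data, 2 differed between heated cytTC248 and heated TC243 and 2 between unstressed cytTC221 and cytTC248. With control cytTC221 replicates 2 to 4 counted as 1 sample, also chosen after seeing the data, 2 differed in response between cytTC221 and cytTC248 in place of 4 (hsp18c and hsp18f), and 0 between unstressed cytTC221 and cytTC248 in place of 1, with 3590 in place of 5569 over all genes.

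Leaving out 1 array at a time left 10 members up-regulated in each line. Members differing in response numbered 2 to 3 between cytTC221 and TC243, 0 to 1 between cytTC248 and TC243 and 3 to 5 between cytTC221 and cytTC248. In heated level they numbered 2 to 4, 0 to 2 and 3 to 4, and unstressed 0 to 1, 0 to 0 and 1 to 1, in the same order. The median of all genes also moved: with normexp and the 75th percentile the median heat response was 0.12, 0.48 and 0.27 in cytTC221, cytTC248 and TC243, and with the processed signal and the 75th percentile -0.02, 0.31 and 0.25. Signal over background limits the folds of members unmeasured in control.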
